A study of Mus musculus with 6 samples.

Results

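Genes of RNA N6-methyladenosine (m6A) methylation and of the S-adenosylmethionine supply behind it were followed in CD4+ T cells with a conditional knockout (cKO) of the U5 snRNP assembly factor CD2BP2/U5-52K. The 10 genes, of 56246 in the deposited table, are Mettl16, Mat2a, Mat2b, Ahcy, Mettl3, Mettl14, Wtap, Ythdc1, Virma and Alkbh5. They were taken by symbol, and the list was chosen by the expression difference of Mettl16 between cKO and Control in these same libraries. Its change is therefore a description here, and no p-value is given for any of the 10. All 10 passed the filter on low values, which asked that the mean of 1 group or the other reach 100 normalized counts. Genes without a symbol were left out, and 11001 of the 25351 genes with a symbol passed.

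RNA of sorted CD4+CD8- cells from pooled spleen and peripheral lymph nodes was sequenced in 3 cKO and 3 Control libraries. The study's methods give male mice of 8 to 12 weeks, and the sources used here name no strain. KO_7.8, KO_9.10 and KO_11.12 are the cKO libraries, of U5-52Kf/f CD4-Cretg mice, in which a Cre driven by the Cd4 promoter removes the floxed gene during thymic development, in the CD8 lineage as well as the CD4 lineage. In Control, CTRL_1.2 and CTRL_3.4 had the genotype U5-52Kwt/f CD4-Cretg and CTRL_5.6 had U5-52Kf/f CD4-Cre-, so all groups carried at least 1 floxed allele, and Cre and the number of floxed alleles differ within Control. Values of 3 libraries are given below in these orders.

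METTL16 is a methyltransferase that puts m6A on the U6 snRNA, in the stretch that pairs with the 5' splice site, and on hairpins in the 3' untranslated region of the MAT2A mRNA. MAT2A makes S-adenosylmethionine, the methyl donor of these reactions, and in human cells and mouse embryos METTL16 raises MAT2A output when the donor runs short, in human cells partly through splicing of the last intron of MAT2A. Most m6A of mRNA is laid down by another enzyme, the METTL3-METTL14 heterodimer, which works with WTAP and VIRMA, is read in the nucleus by YTHDC1 and can be removed by ALKBH5. The files hold RNA levels and splicing counts, and m6A itself was not measured.

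The METTL16 recognition letters were looked for in the Mat2a 3' untranslated region, because these sites tie the enzyme to the transcript. GENCODE transcript Mat2a-201 (minus strand of chromosome 6, GRCm38) holds TACAGAGAA 5 times and TACAGAAAA 1 time in the 1494 bases after its stop codon, searched on the transcript strand only. The matches are in capitals in the 30 bases around each.
Mat2a site 1: tggcgtaggtTACAGAGAAgccttcaagct
Mat2a site 2: ccttgtgataTACAGAGAAgtcacagggca
Mat2a site 3: ctggtgtagcTACAGAGAAaccagcttcct
Mat2a site 4: atggcgtaagTACAGAGAAgccatcacctc
Mat2a site 5: caaggtgtccTACAGAAAAaccttgggtta
Mat2a site 6: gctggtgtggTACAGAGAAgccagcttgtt
Site 1 lies at chr6:72434234-72434263 and site 6 at chr6:72432937-72432966, all within the last exon. In the last 1494 bases of the longest coding transcript of each of 16927 genes, TACAGAGAA occurred in 2.204% and either motif in 4.035%. Only 1 gene held 6 matches or more, and Mat2a was itself among the genes searched. A match is a description of the letters and not a measured methylation site.

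The exon that carries the Mettl16 start codon is shown because reads that skip it were counted in cKO and not in Control, and a 66-base exon of a Mettl16 transcript annotated for nonsense-mediated decay because it bears a stop codon. Exon 2 of the coding transcript lies at chr11:74773522-74773649 and the 66-base exon at chr11:74795752-74795817, both on the plus strand of GRCm38. Capitals mark the start codon ATG in exon 2 and the in-frame stop codon TAA in the 66-base exon.
Mettl16 exon 2: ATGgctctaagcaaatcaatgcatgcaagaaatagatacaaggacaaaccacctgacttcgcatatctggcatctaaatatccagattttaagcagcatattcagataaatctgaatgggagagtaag
Mettl16 66-base exon: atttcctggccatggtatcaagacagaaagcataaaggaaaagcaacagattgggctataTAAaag

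Whole-library values set the frame for these genes. Reads in genes ranged from 69981159 to 82286366 in cKO and from 56995121 to 75606222 in Control libraries. Cd2bp2 had 738 to 884 normalized counts in cKO, against 2602 to 2624 in Control. Cd4 was at 54431 to 59883 in cKO and 57495 to 62831 in Control. Cd3e, a chain of the T cell receptor complex, was at 38946 to 44737 in cKO, below all Control libraries at 48742 to 58550, and was not called. The 8 T cell markers summed to 418936 to 452673 in cKO and 439974 to 507886 in Control. Cd8a, which the sort excludes, was at 17.7 to 32.0 in cKO and 9.7 to 107 in Control. Summed counts of 9 B cell markers were 4733 to 8952 in cKO and 10283 to 13922 in Control, without overlap. KO_7.8 stood apart, with a sum of 42999 over 14 myeloid markers, against 7550 to 12055 in Control, and of 11859 over 8 cell cycle genes, against 3207 to 4647. Erythroid markers summed to 4063 in CTRL_5.6 and 3076 in KO_7.8, and to 171 to 484 in the other libraries. None of the genes in these lists was called. In bulk RNA, fewer cells of a type and less RNA per cell cannot be told apart.

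Mettl16 rose 2.51-fold in cKO CD4+ T cells, while the other 9 genes stayed between 85.8% and 108% of their Control means. Mettl16 (ENSMUSG00000010554, chr11:74770830-74828525, plus strand) had 10874, 10630 and 10433 normalized counts in cKO, against 3951, 4509 and 4284 in Control. The lowest cKO library lay 1.21 log2 units above the highest Control library, and the cKO libraries were closer to each other than the Control ones. The log2 fold change was 1.33 ± 0.08 (SE, n = 3 each), where the fold change is on the scale of log2(normalized count + 1) and normalized counts are reads divided by a size factor per library.

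Mettl16 was the only member of the 10 that was called in limma, where a call needs an adjusted p under 0.05 and a log2 fold change past 1 or -1. Over all 11001 genes tested, 62 were called (0.564%), 49 of them higher (0.445%). Since the list was made with Mettl16 known to have risen, nothing is read from that count. By absolute log2 fold change Mettl16 ranked 204 of 11001. Its log2 fold change was 1.31 without KO_7.8, the library with the high myeloid and cell cycle sums, and 1.33 without CTRL_5.6, which leaves only Control libraries with Cre. B cell marker sums and Cd3e separated the groups too, and their part in the Mettl16 difference was not tested. By flow cytometry the paper reports a larger share of memory CD4+ T cells in cKO, and a smaller share of naive ones in the spleen. No naive or memory markers were summed here, and the part of this shift was not tested either.

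**Figure D1:**
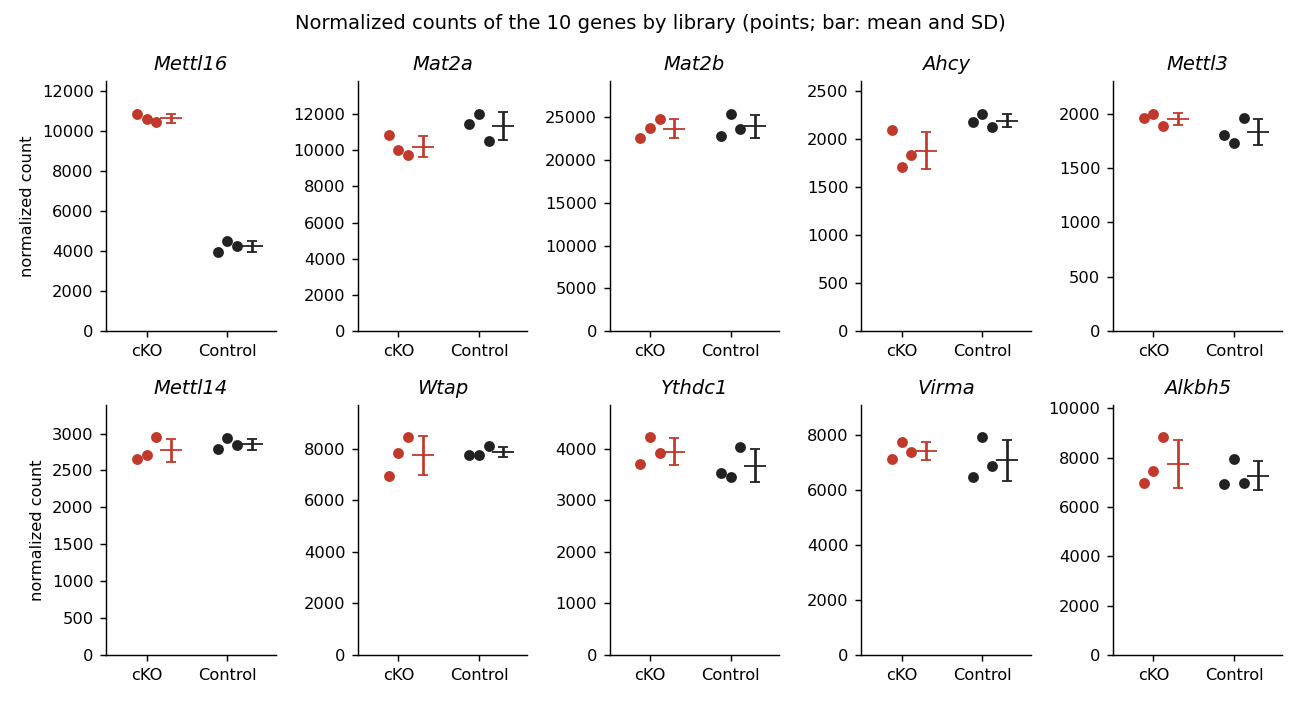
Normalized counts (linear axes from 0, 1 panel per gene) in 3 cKO (red, left) and 3 Control (black, right) libraries; points are libraries, and the bar beside them is the mean with the SD. The cKO points of Mettl16 lie at 10433 to 10874, above all Control points at 3951 to 4509, and the points of the other genes lie within or close to each other.

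The higher read count was found on each internal exon of Mettl16 that could be counted. Reads on each internal exon, from the inclusion counts of the skipped exon events with the most reads, were 2.36 times as many in cKO as in Control for exon 2 once both sums were divided by reads in genes. The ratio was 2.69, 2.52, 2.65, 2.75, 2.83 and 2.50 for exons 3 to 8 in order, and 2.47 for all reads of the gene. The lowest of these ratios belonged to the exon with the start codon. For Mat2a, exon 4 gave 0.858, exon 7 gave 0.886 and the whole gene 0.881. These are ratios of reads summed over 3 libraries, and no spread was computed for them.

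**Figure D2:**
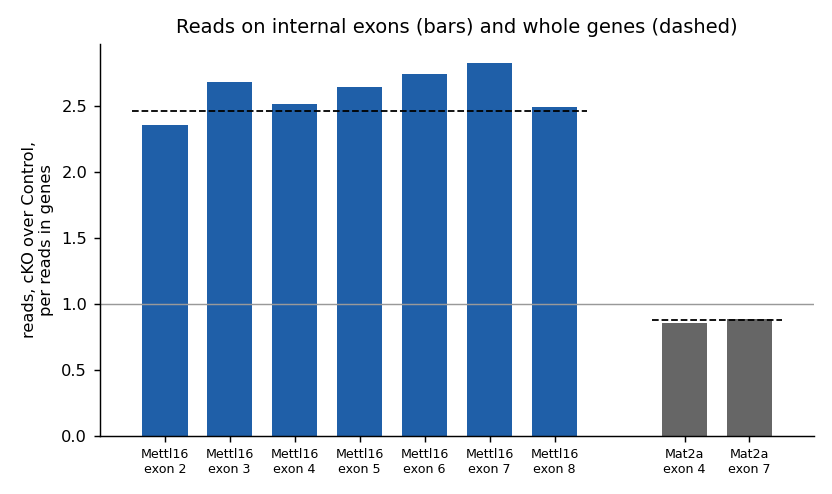
Reads on internal exons of Mettl16 (blue bars, exons 2 to 8) and Mat2a (grey bars, exons 4 and 7), cKO over Control, each sum divided by reads in genes; dashed lines are the same ratio for all reads of the gene and the thin line marks 1. The Mettl16 bars run from 2.36 to 2.83 around the whole-gene ratio of 2.47, and the Mat2a bars lie at 0.858 and 0.886.

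In the S-adenosylmethionine branch, Mat2a, the catalytic subunit that carries the sites printed above, did not follow Mettl16. Mat2a (ENSMUSG00000053907, chr6:72432799-72439558, minus strand) had 10872, 9991 and 9755 normalized counts in cKO and 11442, 12024 and 10489 in Control. KO_7.8 lay within the Control range and the other cKO libraries below it. The log2 fold change was -0.15 ± 0.09 (SE, n = 3 each), and Mat2a was not called. Without each library in turn it ran from -0.20 to -0.10. Particl, an antisense RNA over the Mat2a promoter, had 129 counts on average in cKO and 135 in Control, and whether reads were counted by strand was not found in the sources. A further gene ID under the symbol Mat2a (ENSMUSG00000104463) was at 0 in all 6 libraries.

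Mat2b, the regulatory subunit of the same enzyme, had 22588, 23673 and 24733 normalized counts in cKO and 22781, 25405 and 23570 in Control. The groups overlapped, with a log2 fold change of -0.01 ± 0.08 (SE, n = 3 each) that changed sign without KO_7.8 (0.02) and without CTRL_3.4 (0.03). Ahcy, which clears the S-adenosylhomocysteine left by methylation, had 2097, 1716 and 1831 counts in cKO and 2181, 2267 and 2132 in Control. All cKO libraries lay below all Control libraries, with KO_7.8 only just so, but Ahcy was not called (log2 fold change -0.23 ± 0.11, SE, n = 3 each). Groups that do not overlap were found for 24.1% of the 11001 genes, so Mettl16 and Ahcy, 2 of 10, are close to that background.

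None of the subunits of the m6A writer complex separated the groups. Mettl3, the catalytic subunit, had 1964, 2001 and 1889 normalized counts in cKO and 1806, 1728 and 1960 in Control. Mettl14, its partner that holds the RNA, had 2661, 2711 and 2948 in cKO and 2793, 2936 and 2840 in Control. Log2 fold changes were 0.09 ± 0.10 for Mettl3 and -0.04 ± 0.09 for Mettl14 (SE, n = 3 each), and in both genes the groups overlapped. Mettl3 shares part of its locus with Tox4 on the opposite strand, which averaged 18538 counts in cKO and 14142 in Control.

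Wtap, the adaptor that brings the heterodimer to nuclear speckles, had 6956, 7825 and 8435 normalized counts in cKO and 7753, 7762 and 8105 in Control. The cKO libraries were spread over more than the Control range, and the log2 fold change was -0.03 ± 0.10 (SE, n = 3 each). Virma, the largest scaffold of the complex, had 7106, 7724 and 7381 in cKO and 6455, 7898 and 6851 in Control. Here the Control libraries were the more spread, and the log2 fold change was 0.07 ± 0.10 (SE, n = 3 each).

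The nuclear reader and the eraser did not separate the groups either. Ythdc1 had 3696, 4222 and 3922 normalized counts in cKO and 3522, 3446 and 4037 in Control, a log2 fold change of 0.11 ± 0.10 (SE, n = 3 each). Alkbh5 had 6962, 7444 and 8818 in cKO and 6909, 7930 and 6953 in Control. KO_11.12 was the highest of all 6 libraries for Alkbh5, and the log2 fold change of 0.09 ± 0.12 (SE, n = 3 each) was -0.01 without it. The 9 genes other than Mettl16 had log2 fold changes from -0.23 to 0.11 with a median of -0.01, and the median of all genes tested was 0.01.

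Per kilobase of annotated exon, Mettl16 moved up the order of the 10 genes. It stood at 770 ± 16.0 normalized counts per kb in cKO, the sixth place, and at 307 ± 20.3 in Control, the ninth place (SD, n = 3 each). Mat2b was the highest at 4732 in cKO and 4783 in Control, followed by Mat2a at 2275 in cKO and 2523 in Control, and Ythdc1 was the lowest at 289 in cKO and 269 in Control. In Control, the ranges of Wtap and Alkbh5, of Mettl14 and Mettl3, and of Mettl16 and Ythdc1 overlapped, so these neighbours were not separated. In cKO, Alkbh5 and Wtap, and Mettl3 and Mettl14, were not separated, while the Mettl16 range lay above that of Ahcy and below that of Virma. The lengths join all annotated exons of a gene, 13817 bases for Mettl16, and the level per kb depends on how much of that length the cells use.

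The genes whose profile over the 6 libraries was most like that of Mettl16 were Ncald, Grb7, S100a6, Bax and Myo6. Likeness was the root mean square difference of log2(normalized count + 1) after the Control mean was taken off, and it ran from 0.09 for Ncald to 0.13 for Myo6. Ncald encodes a neuronal calcium sensor, Grb7 an adaptor of receptor kinases, S100a6 a calcium-binding protein, Bax a pore-forming inducer of apoptosis and Myo6 a myosin motor. Grb7 had 522, 547 and 530 counts in cKO and 220, 192 and 227 in Control. For Mat2a the nearest were P2rx4, Atxn3, Atad2, Tbc1d5 and Kpna4, at 0.03 to 0.04.

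Of 67 other pathway genes that passed the filter, none was called by limma, and none had an adjusted p under 0.05, against 74 higher and 33 lower of 11001 genes. At an unadjusted p under 0.05, 3 were higher and 10 lower, while over all genes 1018 were higher and 818 lower. edgeR called none of the 67 and DESeq2 called Mettl27 alone. The lists were written with earlier results of these data known, and their medians are given beside the 0.01 of all genes.

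The other subunits of the writer complex, Zc3h13, Cbll1, Rbm15 and Rbm15b, had a median log2 fold change of -0.05. The gene of smallest p among them was Rbm15, which leads the complex to RNA, with 3454, 3741 and 3864 normalized counts in cKO and 4121, 4323 and 3506 in Control. Its groups overlapped (log2 fold change -0.11 ± 0.11, SE, n = 3 each). Among the other N6-methyladenosine methyltransferases and their partners, 5 genes with a median of -0.01, the smallest p was that of Mettl5, the 18S rRNA enzyme. Mettl5 had 1401, 1370 and 1327 in cKO and 1724, 1657 and 1591 in Control. All cKO libraries were lower, but the log2 fold change of -0.28 ± 0.09 had an adjusted p of 0.223 from limma.

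Fto, the other m6A eraser, had 12372, 14313 and 14615 normalized counts in cKO and 12124, 13412 and 10966 in Control (log2 fold change 0.18 ± 0.11, adjusted p = 0.478 from limma). Of 11 further readers, 9 passed the filter, with a median of -0.01. Ythdf2, a cytoplasmic reader that sends m6A-bearing mRNA to decay, had 17568, 16191 and 16984 in cKO and 13849, 15316 and 14871 in Control. The cKO libraries all lay above the Control ones, with a log2 fold change of 0.21 ± 0.08 and an adjusted p of 0.274 from limma.

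No gene of the methionine and S-adenosylmethionine cycle was called. Of its 16 tested genes, 12 had a negative and 4 a positive log2 fold change, with a median of -0.18. Over all 11001 genes tested, 5306 were negative and 5695 positive. Mri1, an isomerase of the methionine salvage pathway, had 2320, 2209 and 2350 normalized counts in cKO and 3384, 3151 and 4049 in Control. No library overlapped, and the log2 fold change of -0.61 ± 0.12 had an adjusted p of 0.0723 from limma. Mat1a, Gnmt, Bhmt and Cbs, genes of the liver form of the cycle, were below the filter.

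Of all 11001 genes tested, 5695 had a positive log2 fold change. Among genes that finish and recycle the U6 snRNA, 11 of 13 did, with a median of 0.17 and none called. The smallest p was that of Mepce, the capping enzyme of 7SK RNA, with 1189, 1052 and 1096 normalized counts in cKO and 1348, 1340 and 1560 in Control (log2 fold change -0.35 ± 0.11, adjusted p = 0.213 from limma). The 3 genes of cleavage factor Im, an RNA-binding factor of mRNA 3' end processing that also takes part in MAT2A splicing in human cells, had a median of -0.09. Nudt21 among them had 6659, 4875 and 5428 normalized counts in cKO and 4770, 4803 and 5978 in Control, which overlapped (0.12 ± 0.15 on the log2 scale, adjusted p = 0.753 from limma).

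Of 16 other methyltransferase-like genes tested, 8 were positive and 8 negative, with a median of -0.01. Mettl27 had 204, 276 and 312 normalized counts in cKO and 498, 491 and 801 in Control. All cKO libraries were lower (log2 fold change -1.16 ± 0.26), with an adjusted p of 0.111 from limma and 0.00257 from DESeq2. Under other filters, scalings and tests and without each library, its adjusted p ran from 0.00257 to 0.271.

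**Figure D3:**
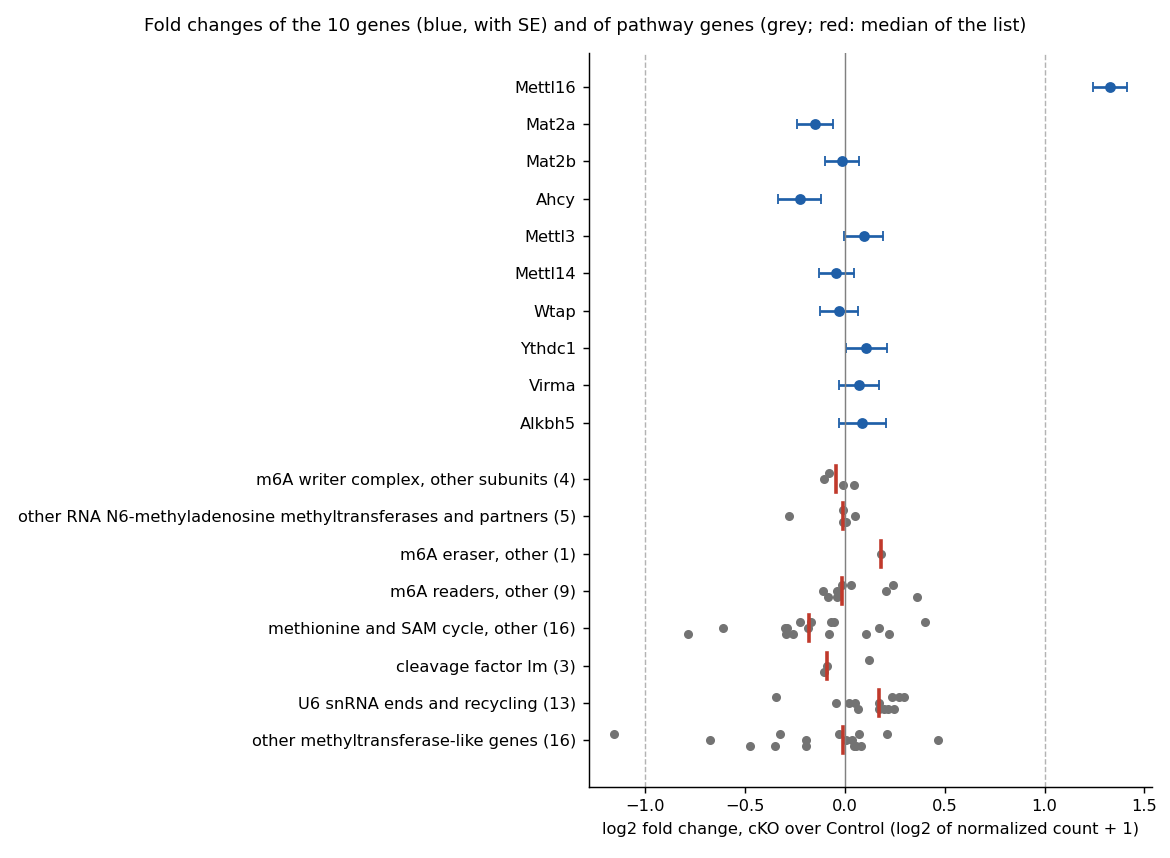
Log2 fold changes, cKO over Control, of the 10 genes (blue, bars are the SE of limma) and of other pathway genes by list (grey points, 1 per gene; red line, median of the list; number of tested genes in parentheses); dashed lines mark -1 and 1. Mettl16 stands at 1.33, the other blue points between -0.23 and 0.11, and Mettl27 at -1.16 is the lowest grey point.

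Splicing of the 10 genes was read from the authors' event tables, which count reads for and against each skipped exon, mutually exclusive exon pair, retained intron and alternative 3' or 5' splice site. Inclusion is the share of the longer form, or of the first exon of an exclusive pair, after division by the length of each form, and 3 values per group come without library names. Of 80 listed events, 76 reached 20 reads on average in each group, and none was called at an FDR under 0.01 with a difference of at least 10 points. The same rule called 0.495% of skipped exons, 0.25% of exclusive exons, 0.181% of retained introns, 0.584% of alternative 3' sites and 1.08% of alternative 5' sites, or 0.465% of 55912 events in all. The difference was under 2 points in 67 of the 76 events. Only 30 of the 76 had at least 5 reads per library in the rarer form. In the others nearly all reads were of 1 form, so a small difference there says little.

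The last intron of Mat2a was spliced out almost completely in both groups. Retention of this 585-base intron (chr6:72434396-72434980) was 0.22%, 0.19% and 0.43% in cKO and 0.40%, 0.28% and 0.27% in Control, on 818 to 1043 spliced reads per cKO value and 607 to 1072 per Control value. The groups overlapped, and the means differed by -0.04 points. The 253-base intron 2 (chr6:72437118-72437370) was retained at 0.68%, 0.44% and 0.59% in cKO and 0.72%, 0.53% and 0.56% in Control. No alternative 3' or 5' splice site event of Mat2a is in the tables.

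Skipping of Mettl16 exon 2, whose first bases are the start codon printed above, was seen in each cKO value and in no Control value. The skipping reads were 5, 10 and 5 in cKO and 0, 0 and 0 in Control, with 986, 1198 and 1173 inclusion reads in cKO and 387, 491 and 313 in Control. Inclusion was therefore 99.07%, 98.47% and 99.21% in cKO and 100% in Control. Skipping reads were 0.592% of 3377 reads in cKO (95% exact interval 0.362 to 0.913%), against 0 of 1191 reads in Control, which allows a share of up to 0.252% by a limit of 3 counts and 0.309% by the same exact interval. These limits cover counting error only. The event was picked after its values were seen, and the difference of -1.08 points is far under the threshold.

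The largest difference among Mettl16 events with at least 5 reads per library in the rarer form was in the pair of exons 2 and 3. Of the reads for the pair, after division by length, the first exon took 43.5%, 40.9% and 42.6% in cKO and 49.2%, 49.1% and 53.6% in Control, without overlap. The difference was -8.30 points and was not called. Taken singly, exon 2 was included at 98.47% or more and exon 3 at 97.92% or more in every value. The 2 exons were therefore not used in place of each other, and the pair value compares reads on exons that were both almost always included. The 66-base exon with the stop codon, also picked after its values were seen, was included at 5.74%, 6.90% and 6.26% in cKO and 6.83%, 5% and 6.44% in Control, a difference of 0.21 points.

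Ythdc1 had the largest difference of any member event, in a 36-base exon (chr5:86809305-86809340, plus strand, GRCm38) that keeps the reading frame. It is exon 2 of Ythdc1-208, a transcript annotated for nonsense-mediated decay, and is printed in capitals, as the exon of the largest member difference, with 15 bases of the neighbouring exon on either side.
Ythdc1 36-base exon: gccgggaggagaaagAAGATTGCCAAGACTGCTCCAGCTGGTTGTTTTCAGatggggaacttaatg
Inclusion was 19.9%, 37.7% and 24.2% in cKO and 43.0%, 21.8% and 46.1% in Control, on 102 to 198 reads per cKO value and 91 to 113 per Control value. The groups overlapped, with 1 high cKO value and 1 low Control value, so the difference of -9.69 points was of the size of the spread within the groups (SD 9.31 in cKO and 13.26 in Control, n = 3 each).

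No event of the remaining members was called. A 97-base exon of Mettl3 was included at 79.7%, 65.0% and 58.7% in cKO and 71.1%, 65.3% and 88.0% in Control. An alternative 3' site of Mettl14 gave 43.8%, 35.98% and 53.8% in cKO and 45.1%, 32.2% and 49.5% in Control. Both sets of values overlapped over most of their range. A 3' site of Mat2b 28 bases from its neighbour stood at 91.6%, 91.1% and 89.1% in cKO and 90.9%, 92.5% and 91.5% in Control, and a 153-base exon of Virma at 95.7%, 97.2% and 96.6% in cKO and 97.3%, 99.5% and 97.3% in Control. The Virma values did not overlap, but the highest cKO value of 97.20% lay next to the lowest Control value of 97.26%. Ahcy, Wtap and Alkbh5 had no event with 5 reads per library in the rarer form.

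Among the other pathway genes, the called splicing events were in a reader and in a U6-binding protein. Of 432 events in 61 genes, 4 were called (0.926%), 3 in Hnrnpc and 1 in Lsm6, against 0.465% of all 55912 events. The Hnrnpc 3' splice site events share reads, and the lists were written with earlier results known, so nothing is read from the count. Hnrnpc encodes a nuclear RNA-binding protein whose access to RNA is changed by m6A, and the called 3' splice sites lie in its exon 8. The longer form adds 24 or 21 bases to that exon at chr14:52075413-52075436 (minus strand), printed here in capitals with 15 bases of the transcript on either side, because the largest splicing difference among these genes falls there.
Hnrnpc 24-base stretch: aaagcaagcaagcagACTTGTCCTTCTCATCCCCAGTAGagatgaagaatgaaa
Against the site 21 bases on, the longer form was used at 24.6%, 26.0% and 27.9% in cKO and 54.8%, 55.7% and 52.0% in Control. The difference of -28.0 points (adjusted p = 4.63e-37, quasi-binomial test) was over 10 times the SD of either group. Against the site 24 bases on, which shares its longer-form reads, the values were 49.1%, 50.4% and 51.1% in cKO and 73.9%, 75.7% and 70.6% in Control (difference -23.2 points, adjusted p = 1.17e-21, quasi-binomial test). Both events describe 1 exon.

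A 26-base exon of Hnrnpc was included at 61.9%, 60.2% and 56.7% in cKO and 67.5%, 76.0% and 72.9% in Control (difference -12.5 points, adjusted p = 2.73e-08, quasi-binomial test). Lsm6, a subunit of the ring that binds the end of U6 snRNA, had a 99-base exon included at 69.4%, 71.0% and 70.2% in cKO and 78.7%, 79.7% and 82.2% in Control. The difference of -10.0 points (adjusted p = 0.000888, quasi-binomial test) lay at the threshold, and the event was not called without 1 cKO or 1 Control value. In mRNA level, Hnrnpc had a log2 fold change of 0.03 and Lsm6 of 0.24, and neither was called. When limma was run on the log2 ratio of reads instead, 0 events were called over all genes, these 4 included.

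Ythdf2 and Fto are named beside these after their values were seen. An exon of Ythdf2 was included at 74.9%, 81.9% and 79.3% in cKO and 89.0%, 87.8% and 87.5% in Control (difference -9.35 points, adjusted p = 0.00803, quasi-binomial test). A longer version of the exon with the same skipping reads gave -14.2 points with an adjusted p of 0.0116, so that each event missed 1 of the thresholds. A 120-base coding exon of Fto had 22, 33 and 58 skipping reads in cKO and 0, 0 and 0 in Control, with 930 to 1505 inclusion reads in cKO and 666 to 1255 in Control. Skipping reads were 2.81% of 4024 reads in cKO (95% exact interval 2.32 to 3.37%), against 0 of 2943 in Control, which allows up to 0.102% by a limit of 3 counts and 0.125% by the same exact interval. The difference of -4.84 points (adjusted p = 2.07e-07, quasi-binomial test) passed the FDR and not the 10 points.

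**Figure D4:**
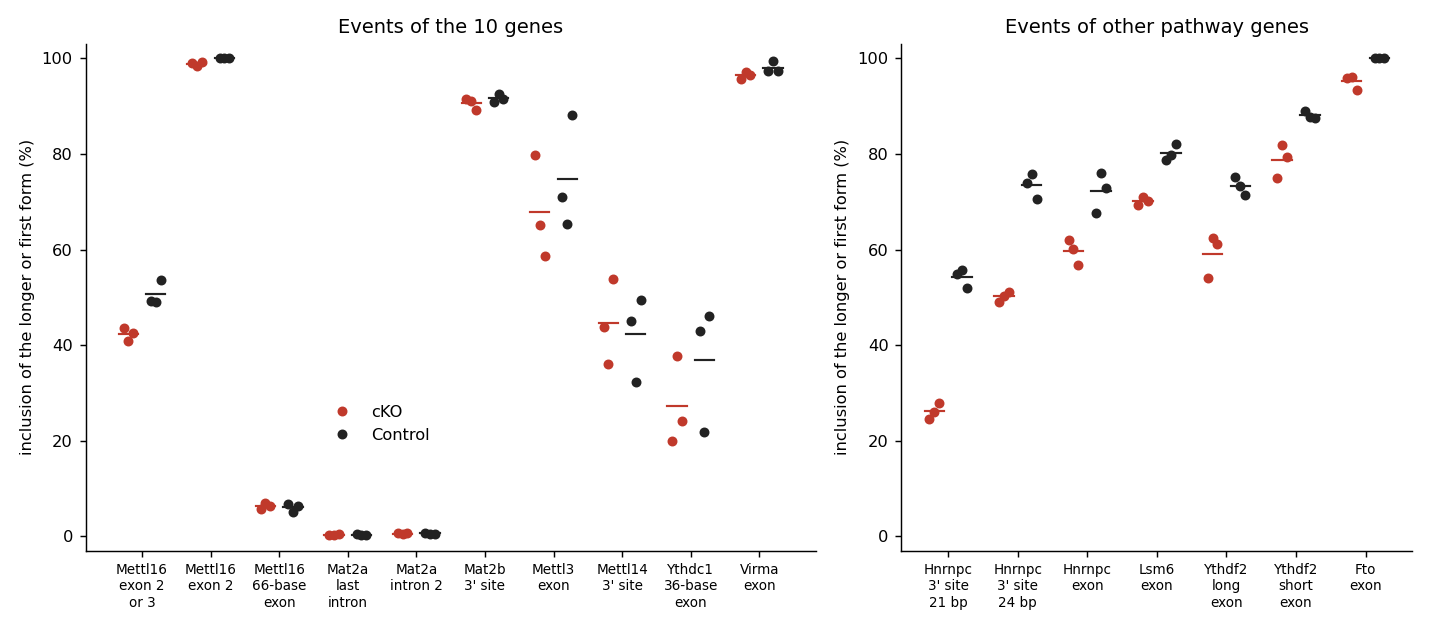
Inclusion (%, linear axis from 0 to 100) in 3 cKO (red, left) and 3 Control (black, right) values per event, with lines at the means; the left panel holds events of the 10 genes and the right panel those of other pathway genes. In most left-panel events the colours lie close or overlap, as for the Ythdc1 exon at 19.9 to 37.7% in cKO and 21.8 to 46.1% in Control. The pair of Mettl16 exons 2 and 3 lies apart, at 40.9 to 43.5% in cKO and 49.1 to 53.6% in Control. Events of the right panel were called or picked after their values were seen, and in each the red points lie below the black ones.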

How the data were processed

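Reads were trimmed with cutadapt, aligned to GRCm38 with STAR and counted per gene with featureCounts by the authors, who divided the counts by DESeq2 size factors. The deposited normalized counts are a signal per gene and library. Whole reads were recovered from them, and reads in genes ranged from 56995121 to 82286366 per library. The deposited rMATS tables hold counts of reads for 2 forms of each event (junction plus exon reads), 3 values per group with no library order given. Their first sample was taken as Control, because the paper's splicing results and their figure give the inclusion difference as Control minus cKO. Columns with the authors' own comparisons (fold changes and p-values) were not used.

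Expression was tested with limma 3.58.1 (R 4.3.3, trend) on log2(normalized count + 1) over 11001 genes, with Benjamini-Hochberg adjustment, and with edgeR 4.0.16 and DESeq2 1.42.0 on the recovered reads as alternatives. Splicing counts were tested with a quasi-binomial model with moderated dispersion over 55912 events. Both were also run on simulated data. For splicing these had a spread pooled over events, with differences planted only in exons of intermediate inclusion. They do not bear on exons that are almost always included, and nothing is drawn from them here. The study's methods name 3 cKO and 3 control mice as the source of the sequenced RNA. The libraries are separate by label, but the paired numbers in their names are not explained. Whether a library holds 1 animal or a pool is therefore not settled by the labels, and expression p-values measure the spread between libraries. Splicing p-values rest on that spread only in part, and also on read counts and a dispersion pooled over events. A very small adjusted p of a splicing event is therefore not a measure of its own spread between libraries alone. No pair of libraries of a group agreed within sampling noise.

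The 10 genes and the pathway lists were chosen with earlier results of these data known. Named in the text are the 10 genes, the gene of smallest p in each list, the 5 nearest profiles, all Mat2a intron and splice site events, the event of largest difference for the other members with at least 5 reads in the rarer form, and called pathway events. Transcript sequences and positions are from GENCODE vM21. One gene of the B cell marker list is not reported here and was left out of its sum.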

Additional observations from a re-analysis of the deposited data

How the results depend on the processing

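Mettl16 was the only member called under each of the 15 alternatives, and its log2 fold change ran from 1.28 to 1.37 over the 14 that give one. Leaving out each library in turn left 1 member called and 0 other pathway genes called. DESeq2 called 1 other pathway gene, Mettl27, against 0 by limma. At an FDR under 0.05 with a difference of at least 5 points, 1 of 76 member events (Mettl16 exon 2 or 3) was called, against 0, and 12 of 432 other pathway events, against 4, where 1.2% of all 55912 events were called. Both exons of that Mettl16 pair were almost always included, so its call is no switch between them. limma on the log2 ratio of reads called 0 of these pathway events and 0 events in all, against 260, and the cause was not tested. A dispersion prior over all events called 445 events in all, 5 of them in pathway genes. Without each listed value in turn, 0 member events and 3 to 6 pathway events were called, where 186 to 258 of all events were called (0.333% to 0.461%), and the Lsm6 exon was lost without cKO value 1 and without Control value 3. Mat2b changed sign under 2 alternatives (to 0.02 and 0.03), Wtap under 1 (to 0.05) and Alkbh5 under 1 (to -0.01). With DESeq2, 236 genes were called in all, against 62 with limma. No paired analysis was possible because the labels give the groups no shared replicate numbers. A call needs a log2 fold change past 1 or -1, so smaller differences in the 9 other members could not be called by that rule. At an adjusted p under 0.05 alone in limma, with no limit on the fold change, Mettl16 was still the only member called.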
